A study of Mus musculus with 11 samples.

Results

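The CCN family is a set of secreted matricellular proteins, and 5 of its genes are described here, Ccn1 to Ccn5. They were taken by symbol from a deposited table of 55487 Ensembl gene identifiers, and all 5 were found. The family was chosen by its FPKM values by genotype in these same libraries, so the genotype values of the members are given as a description, without p-values. RNA was sequenced from the spinal cord of C57BL/6 mice and from cultures of mouse fetal fibroblasts (MEF, primary connective tissue cells grown from fetuses) of the same strain. In each, wild-type libraries were compared with libraries of heterozygotes for Morc2a p.S87L, an amino acid change in the chromatin ATPase MORC2A that the series title ties to neuropathy. Cord gave 3 wild-type and 3 S87L libraries, and MEF gave 3 and 2. Neither the age of the animals nor the fetal stage or culture conditions were found in the labels.

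CCN proteins work at the cell surface rather than as structural parts of the matrix. They hold an IGF-binding protein-like module, a von Willebrand type C module, a thrombospondin type 1 module and, in most members, a C-terminal cystine knot, and through these they bind integrins, heparan sulfate proteoglycans, LRP receptors and growth factors. Ccn1 (formerly Cyr61) and Ccn2 (Ctgf) are quickly induced by serum, stretch and TGF-beta and are standard targets of the YAP and TAZ coactivators, which act through TEAD factors. Ccn3 (Nov) restrains growth in many cell types and often opposes Ccn2 in fibrosis models, while Ccn4 (Wisp1) and Ccn5 (Wisp2) were found as genes that respond to WNT1.

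The coding sequences show what the 5 genes share and where Ccn5 stands apart. Coding sequences were read from GENCODE M21 transcripts of GRCm38. They had 379 codons in Ccn1, 348 in Ccn2, 354 in Ccn3, 367 in Ccn4 and 251 in Ccn5, with 38, 39, 40, 38 and 29 cysteine codons. Identity between members over aligned coding bases ran from 59.5% (Ccn3 and Ccn4) to 66.4% (Ccn2 and Ccn3, and also Ccn4 and Ccn5). The stretches below code for the cysteine motif of the IGF-binding protein-like module and are shown because every member holds one. Cysteine codons are in capitals, 5′ to 3′ on the coding strand.
Ccn1: ggcTGCggcTGCTGTaaggtcTGC
Ccn2: ggcTGCggcTGCTGCcgcgtcTGC
Ccn3: ggcTGCtccTGCTGTccggtgTGC
Ccn4: ggcTGTgaaTGCTGTaagataTGT
Ccn5: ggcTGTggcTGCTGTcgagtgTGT
These lie at chr3:145649331-145649354 (minus strand), chr10:24595966-24595989, chr15:54746265-54746288, chr15:66906545-66906568 and chr2:163825225-163825248 (plus strand), each within 1 coding exon. Ccn1 and Ccn2 matched at 20 of the 24 bases and Ccn2 and Ccn4 at 14, the closest and the most distant pairs over this stretch. The next set codes for the thrombospondin type 1 motif and shows where the members part, because what follows it differs in length.
Ccn1: tggtcccagTGCtccaagagcTGCgga
Ccn2: tggagcgccTGTtctaagaccTGTggg
Ccn3: tggagcgcaTGTtccaagagcTGTgga
Ccn4: tggagccccTGCtctaccaccTGTggc
Ccn5: tggggccccTGCtcaaccaccTGTggg
After this motif 135 to 137 codons followed in Ccn1 to Ccn4, 13 of them for cysteine in each gene. In Ccn5 41 codons followed, 3 of them for cysteine, as is known of this member, which lacks the C-terminal cystine knot.

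A promoter window was found for Ccn1, 1 of the 5 members, in the RefSeq table for GRCm38.p6. It is shown for the factors whose genes are described further on. The 250 bases before its annotated start, chr3:145649986-145650235 on the minus strand, read as follows, with motif matches in capitals.
Ccn1: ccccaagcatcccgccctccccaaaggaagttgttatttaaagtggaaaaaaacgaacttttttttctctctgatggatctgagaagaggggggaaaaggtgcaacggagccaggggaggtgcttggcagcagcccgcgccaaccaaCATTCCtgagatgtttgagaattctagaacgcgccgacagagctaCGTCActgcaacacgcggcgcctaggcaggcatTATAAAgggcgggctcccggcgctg
CATTCC, the reverse complement of the TEAD motif GGAATG, began 103 bases before the start. A short cyclic AMP response motif (CGTCA, the reverse complement of TGACG) began 58 bases before it, and the TATA box TATAAA 25 bases before it. On either strand the TEAD motif was present in 12.6% of 32851 RefSeq windows of this length and the cyclic AMP response motif in 17.8%, and TATAAA, read on the gene's own strand, in 7.6%. No serum response CArG box and no AP-1 motif (TGANTCA) was found in this window, against 1.5% and 6.7% of windows. No motif overlapped another.

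Depth, as reads recovered from the FPKM values, ran from 15.35 to 23.53 M in cord and from 12.08 to 15.05 M in MEF libraries. FPKM divides a gene's fragments by its length and by a total for the library, so levels can be set side by side between genes. The total implied by the values was 11.48 to 22.72 M. It lay below the recovered reads and close to those of protein-coding genes (11.45 to 22.65 M). Genotype differences were fitted with limma on log2(FPKM + 0.5) within each tissue, and genes whose adjusted p (Benjamini-Hochberg, whole table) was below 0.05 are referred to as called. Morc2a itself was lower in S87L libraries, with a log2 fold change of -0.20 (SE 0.04) in cord and -0.17 (SE 0.04) in MEF. Cord libraries held high levels of neuronal and astrocyte markers (Nefl 670 and Gfap 629 FPKM in wild-type), and MEF libraries of fibroblast markers (Col1a1 2427 and Col1a2 708 FPKM in wild-type). Wild-type MEF also held Col2a1 at 81.7 FPKM and the macrophage gene C1qa at 35.0. The labels do not tie each library to an animal or culture of its own, so a p-value here reflects only how much these libraries vary, which may be technical.

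All 5 genes were far higher in MEF than in cord. In wild-type cord the members had mean FPKM of 0.301 to 5.36, and in wild-type MEF of 79.4 to 200.5. The genotype contrasts for which the family was chosen are not part of this comparison, so it was tested between the 3 wild-type libraries of each kind. Limma called Ccn1, Ccn2 and Ccn3, which reached the minimum of 0.5 FPKM in both tissues, higher in MEF. Ccn4 and Ccn5 passed the filter through MEF alone, so their differences are given without a test. Of all 15962 genes tested, 87.6% were called in either direction and 40.3% higher. Across all genes the median difference was -0.12 on the log2 scale, and 0.15 with quantile normalization, a shift much smaller than any member's difference. Fewer cells that make a transcript and less of it per cell cannot be told apart in bulk tissue.

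Ccn4 and Ccn5 had the largest differences of the 5 on the log2 scale, and did not differ from each other in this by more than their SE. Ccn5 had 0.373, 0.281 and 0.248 FPKM in the wild-type cord libraries and 106.7, 104.9 and 98.97 in wild-type MEF, a log2 fold change of 7.02 (SE 0.07). Ccn4, which binds decorin and biglycan, went from 0.367, 0.340 and 0.270 FPKM to 105.0, 104.3 and 104.3 (6.99, SE 0.05). The ratios of mean FPKM were 344 and 321, larger than the folds on the log2 scale, because the pseudocount holds low values up. These were the members with the least RNA in cord, resting on 28 reads (Ccn5) and 87 reads (Ccn4) summed over the 3 wild-type cord libraries. With limma's voom weights on recovered reads and no filter the differences were 8.35 and 8.30.

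Ccn1 followed, with 2.08, 2.04 and 1.89 FPKM in wild-type cord and 199.8, 193.8 and 199.4 in wild-type MEF (log2 fold change 6.31, SE 0.04, limma adjusted p = 1.92e-11). Ccn2 had 5.71, 5.01 and 5.37 FPKM in cord and 205.2, 199.7 and 196.5 in MEF (5.10, SE 0.05, adjusted p = 7.80e-11). Ccn3 had 2.37, 1.81 and 2.31 FPKM in cord and 81.4, 77.0 and 79.6 in MEF (4.91, SE 0.08, adjusted p = 9.22e-10). No library of one tissue reached the range of the other for any member, as for 88.5% of all genes tested. Ranked by mean FPKM among 21974 protein-coding genes, Ccn2 stood at 137 and Ccn1 at 142 in wild-type MEF, and at 7487 and 10772 in wild-type cord.

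The order of the members differed between the tissues. In wild-type cord Ccn2 was highest, then Ccn3 and Ccn1, whose libraries overlapped, then Ccn4 and Ccn5, whose libraries also overlapped. In wild-type MEF Ccn2 and Ccn1 overlapped at the top, Ccn4 and Ccn5 overlapped in the middle, and Ccn3 was lowest. As shares of the summed FPKM of the 5 genes, Ccn2 took 52.4% to 53.2% in wild-type cord and 29.0% to 29.4% in wild-type MEF. In wild-type MEF Ccn4 took 15.1% to 15.4% and Ccn5 14.6% to 15.4%. In wild-type cord these shares were 2.68% to 3.59% for Ccn4 and 2.46% to 3.42% for Ccn5.

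**Figure D1:**
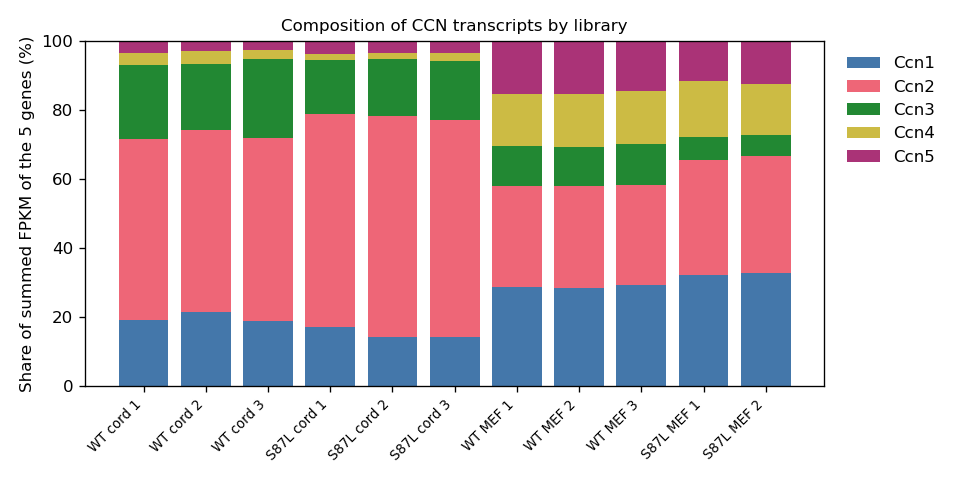
Share of each member in the summed FPKM of the 5 CCN genes (vertical axis, percent), 1 stacked bar per library. Ccn2 takes the largest share in all cord libraries, 52.4% to 53.2% in wild-type and 61.8% to 63.9% in S87L, and the Ccn3 share in MEF is 11.3% to 11.7% in wild-type and 6.08% to 6.60% in S87L.

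Genes of the pathways known to drive Ccn1 and Ccn2 were tested in the same comparison. Of 18 tested genes of the Hippo pathway and TEAD factors, 15 were higher and 2 lower (median 1.28), with the coactivator Yap1 at 3.01 ± 0.0991 FPKM in cord and 27.7 ± 0.637 in MEF and Tead1 at 2.53 ± 0.0877 and 37.5 ± 0.816 (SD, n = 3 each). Of 23 YAP and TAZ targets outside the family, 21 were higher and 1 lower (median 2.16), and of 20 SRF and MRTF genes 17 were higher and 1 lower (median 3.82). The share of all tested genes called higher was 40.3%. Some of the genes counted as higher passed the filter through MEF alone, so their calls are not a test. These were Tead2, Tead3 and Tead4 of the first list, Ptx3, Ankrd1 and Nuak2 of the second, and Cnn1 and Actg2 of the third. Their wild-type cord means ran from 0.0143 (Ankrd1) to 0.477 FPKM (Tead3).

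In cord, S87L libraries held more Ccn2, and no other member was called. Ccn2 was at 5.71, 5.01 and 5.37 FPKM in wild-type and at 8.95, 9.36 and 8.67 in S87L libraries. The lowest S87L library lay well above the highest wild-type one. The means were 5.36 ± 0.352 and 8.99 ± 0.346 FPKM (SD, n = 3 each), a log2 fold change of 0.70 (SE 0.06). The member rests on 733 reads over the wild-type and 1575 over the S87L libraries. Of the 3 members that passed the filter of a mean FPKM of at least 0.5, limma called Ccn2, higher. Of all 15648 genes tested it called 12.9%, and 5.17% as higher (809 higher and 1207 lower, and 1023 and 993 with median ratio scaling). Over the 17 other settings run its log2 fold change was 0.65 to 0.76.

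Ccn1 was at 2.08, 2.04 and 1.89 FPKM in wild-type and 2.47, 2.09 and 1.94 in S87L cord. The groups overlapped, and the log2 fold change of 0.09 (SE 0.09) was not called. Ccn3 was at 2.37, 1.81 and 2.31 FPKM in wild-type cord and at 2.28, 2.42 and 2.37 in S87L cord. Here too the groups overlapped (0.11, SE 0.09, not called).

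Ccn4 and Ccn5 did not pass the filter in cord. Ccn4 was at 0.367, 0.340 and 0.270 FPKM in wild-type and 0.256, 0.285 and 0.318 in S87L libraries, from 22 to 37 reads per library, and the groups overlapped. Ccn5 was at 0.373, 0.281 and 0.248 FPKM in wild-type and 0.528, 0.480 and 0.473 in S87L libraries. Its groups did not overlap, but they rest on 13, 8 and 7 reads against 20, 21 and 17. Fitted without the filter, Ccn5 had a log2 fold change of 0.31 (SE 0.10) and was not called, nor was it with voom on recovered reads (0.69). Groups did not overlap for 2 of the 5 members in cord, Ccn2 and Ccn5, and for 35.1% of all genes tested.

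**Figure D2:**
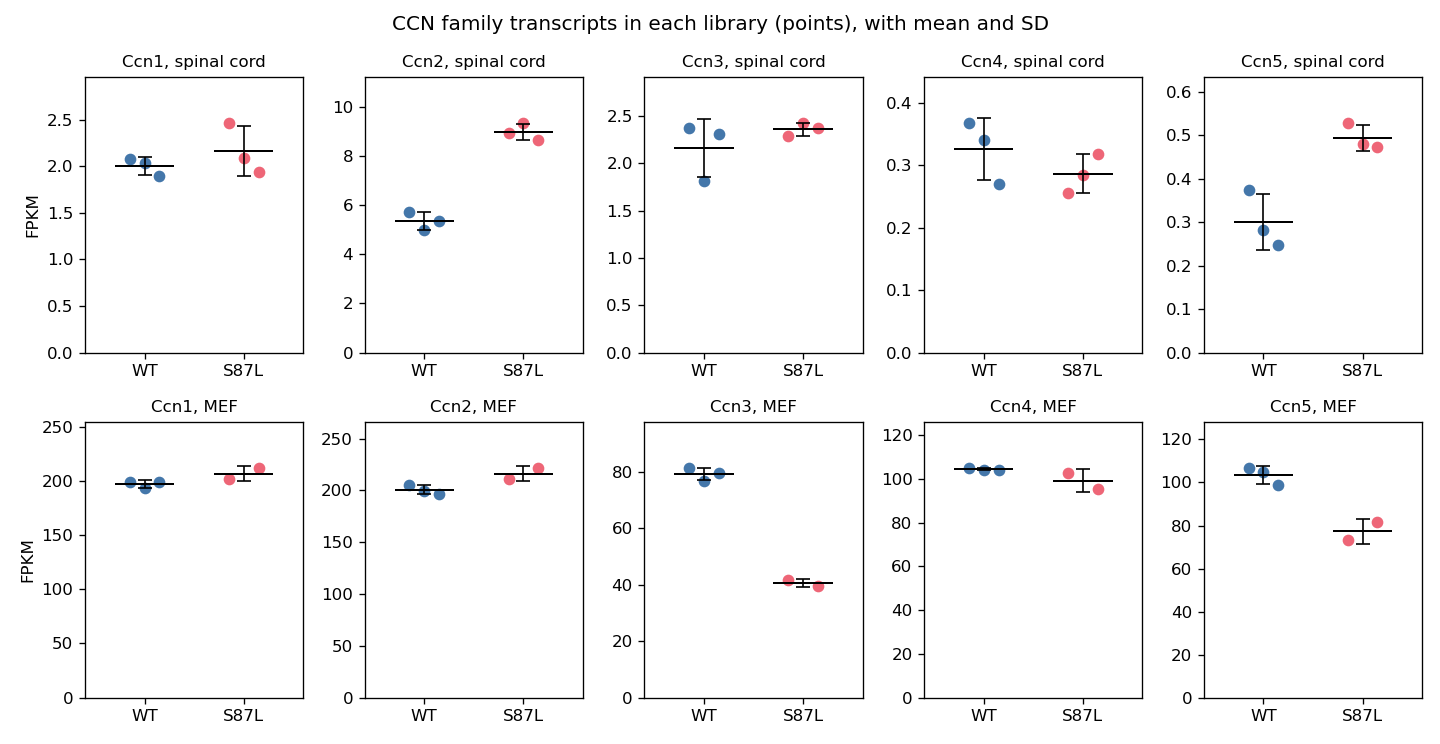
FPKM of each member (vertical axes, each from 0 with its own scale) in wild-type and S87L libraries of spinal cord (upper row) and MEF (lower row). Points are libraries, the horizontal line is the group mean and the bar its SD. Ccn2 and Ccn5 have separate groups in cord, and in MEF the 2 S87L libraries lie at 39.5 and 41.6 FPKM for Ccn3 against 77.0 to 81.4 in wild-type.

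Markers of other cell types moved with Ccn2 in cord. For comparison, 12.9% of all 15648 genes tested in cord were called, 809 higher (5.17%) and 1207 lower. Of 12 tested markers of meninges and fibroblasts, 9 were called higher and none lower, and their summed level was 34.2 to 37.8 FPKM in wild-type and 61.9 to 64.0 in S87L libraries. Of 9 tested markers of pericytes and vascular smooth muscle 5 were higher and none lower (summed 45.1 to 47.6 against 60.9 to 64.4 FPKM). These 5 were Acta2, Des, Tagln, Myh11 and Rgs5, the last by 0.20 on the log2 scale. Pdgfrb, Cspg4, Kcnj8 and Abcc9 were not called (log2 fold changes of -0.08 to 0.06). All 10 skeletal muscle markers were higher (summed 16.7 to 21.7 against 80.1 to 86.5 FPKM), with Acta1 at 3.96 in wild-type and 20.6 in S87L. Among the markers counted, Myh2 (0.137 against 1.54 FPKM) and the fibroblast marker Slc47a1 (0.430 against 0.835) passed the filter through S87L libraries alone. Their calls are therefore not a test. Of 9 tested markers of microglia and macrophages 6 were higher (summed 137.0 to 146.2 against 167.7 to 177.5 FPKM), of 7 of Schwann cells 4 (141.1 to 144.1 against 160.4 to 166.3), and of 5 of red blood cells 3 (336.0 to 371.4 against 408.9 to 447.5), with none lower. Endothelial markers were at 75.2 to 79.9 and 77.1 to 78.6 FPKM, with 1 called higher and 2 lower of 10. No marker of these 7 lists was at 0 in either cord group. The part of these cells in the Ccn2 difference was not tested. The summed level of the 9 astrocyte markers was 1344 to 1389 FPKM in wild-type and 1311 to 1338 in S87L cord. Neuron markers were lower in 3 of 11 and higher in none (summed 1855 to 1860 against 1788 to 1819 FPKM), and the 8 oligodendrocyte markers, with 1 called in each direction, summed to 3444 to 3524 against 3222 to 3385 FPKM.

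**Figure D3:**
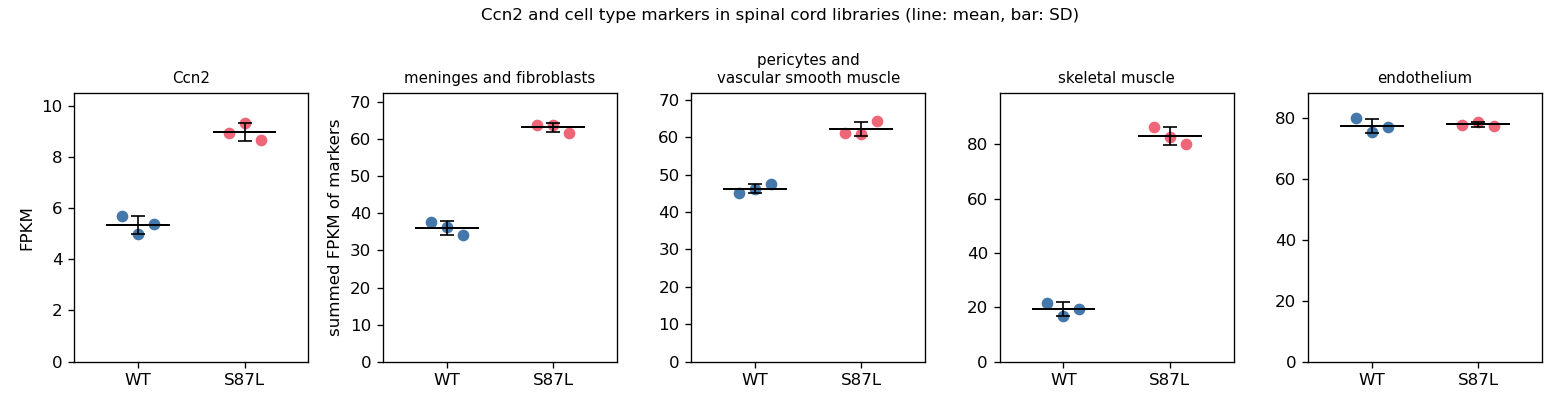
Ccn2 (left, FPKM) and the summed FPKM of 4 marker lists in wild-type and S87L spinal cord libraries, all axes from 0. Points are libraries, the line is the mean and the bar the SD. Fibroblast, pericyte and smooth muscle, and skeletal muscle sums are separate between the genotypes, as Ccn2 is, and the endothelial sums overlap.

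The gene Gm15270 lies on the strand opposite to Ccn2 and overlaps it, and the labels do not say whether counting used the strand. It was at 1.99 to 2.10 FPKM in wild-type and 1.80 to 2.66 in S87L cord, and at 0.392 to 0.572 FPKM in MEF, where Ccn2 itself was at 196.5 to 221.5. No other member overlaps an annotated gene.

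In MEF, S87L libraries held less Ccn3 and Ccn5, and Ccn1, Ccn2 and Ccn4 were not called. Ccn3 was at 81.4, 77.0 and 79.6 FPKM in wild-type and at 41.6 and 39.5 in S87L libraries. Both S87L libraries lay far below all wild-type ones. The means were 79.4 ± 2.22 (SD, n = 3) and 40.6 ± 1.47 FPKM (SD, n = 2), a log2 fold change of -0.96 (SE 0.04), on 9485 and 2951 reads. Ccn5 was at 106.7, 104.9 and 98.97 FPKM in wild-type and at 73.2 and 81.5 in S87L libraries. Its groups were apart as well, with a log2 fold change of -0.42 (SE 0.06). Limma called these 2 of the 5 members, both lower, and 11.2% of the 13773 genes tested, with 6.32% lower. Over the 16 other settings run the log2 fold change was -0.995 to -0.92 for Ccn3 and -0.50 to -0.34 for Ccn5.

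Ccn1 was at 199.8, 193.8 and 199.4 FPKM in wild-type and 202.2 and 212.3 in S87L MEF, and Ccn2 at 205.2, 199.7 and 196.5 against 210.9 and 221.5. The differences of 0.07 (SE 0.04) and 0.11 (SE 0.04) on the log2 scale were not called, though no libraries of the genotypes overlapped. Ccn4 was at 105.0, 104.3 and 104.3 FPKM in wild-type and 102.9 and 95.4 in S87L libraries (-0.08, SE 0.04, not called). With groups of 3 and 2, libraries did not overlap for any of the 5 members, and this was so for 45.8% of all genes tested. Ccn2 was called higher with voom on recovered reads and no filter (0.10) and under none of the other 15 settings.

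Fibroblast markers were lower in the same S87L MEF libraries. For comparison, 11.2% of all 13773 genes tested in MEF were called, with 6.32% lower. Of 10 tested markers of meninges and fibroblasts, 5 were called lower and none higher, and their summed level was 3807 to 3827 FPKM in wild-type and 3283 to 3548 in S87L MEF. The meningeal transporter gene Slc6a13 was at 0 in both groups, and Slc47a1 in S87L. Of 6 tested cartilage and bone markers 2 were lower (summed 110.7 to 111.5 against 99.3 to 104.1 FPKM). Endothelial markers were lower in 3 of 5 (summed 23.2 to 23.8 against 17.7 to 18.4 FPKM, with Cldn5 at 0 in S87L), Schwann cell markers in 2 of 5 (74.7 to 80.2 against 59.1 to 60.5, with Pmp2 at 0 in S87L) and those of microglia and macrophages in 2 of 8 (mean sums of 148.6 and 124.5, with Cd163 at 0 in wild-type), with none higher. Of the microglia and macrophage markers, Tmem119 (58.4 against 43.5 FPKM) and Cx3cr1 (7.47 against 6.08) were those called lower. C1qa, Csf1r, Tyrobp, Mrc1, Aif1 and P2ry12 were not called. The endothelial marker Tek (0.932 against 0.376 FPKM) passed the filter through wild-type MEF libraries alone, so its call is not a test. Of the 10 pericyte and smooth muscle markers 1 was higher and 3 lower, and they summed to 1849 to 1869 FPKM in wild-type and 1788 to 1953 in S87L. Their part in the Ccn3 and Ccn5 differences was not tested.

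**Figure D4:**
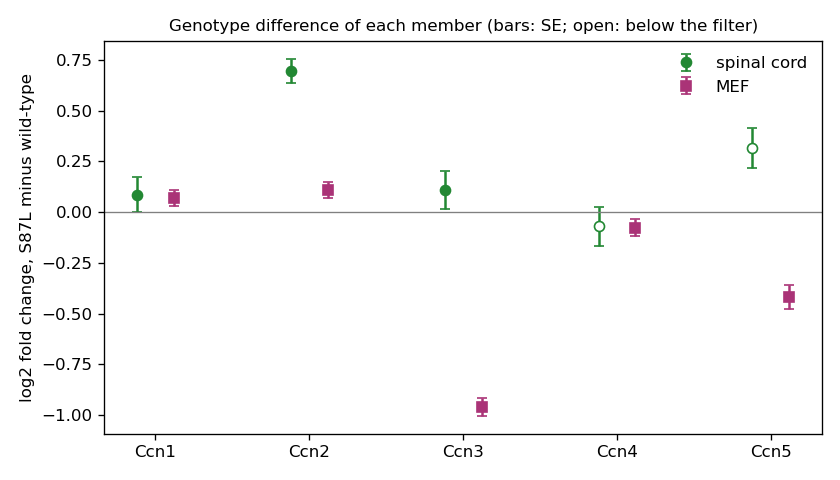
Log2 fold change of each member, S87L minus wild-type, on the log2(FPKM + 0.5) scale, for spinal cord (circles) and MEF (squares), with SE bars. Open symbols are members below the filter in cord. Ccn2 lies at 0.70 in cord, and Ccn3 and Ccn5 lie at -0.96 and -0.42 in MEF.

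The difference between the genotype effects in the 2 tissues was fitted as an interaction in all 11 libraries. It is made of the genotype values that chose the family, so it too is a description. The effect in MEF minus that in cord was -0.59 for Ccn2 (SE 0.07), -1.07 for Ccn3 (SE 0.11) and -0.73 for Ccn5 (SE 0.10), and limma called these 3 of 5. Of 15811 genes tested it called 13.1%, with 6.98% lower (971 higher and 1104 lower). For Ccn1 and Ccn4 it was -0.02 (SE 0.10) and -0.01 (SE 0.08), not called. Ccn5 passed the filter here through MEF, its cord side rests on the few reads given above, and its interaction was not called with voom on recovered reads and no filter (-1.12).

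The share of Ccn2 in the family sum was higher in every S87L library of both tissues (29.0% to 29.4% in wild-type and 33.4% to 34.1% in S87L MEF). So was the ratio of Ccn2 to Ccn3. Both were chosen after the values were seen. The ratio was 2.41, 2.76 and 2.33 in the wild-type cord libraries. It was 3.92, 3.86 and 3.66 in the S87L cord libraries, all higher. The MEF libraries gave 2.52, 2.59 and 2.47 for wild-type and 5.07 and 5.60 for S87L. Of the pair, Ccn2 was the called gene in cord and Ccn3 in MEF. The summed FPKM of the 5 genes was 9.49 to 10.9 in wild-type and 13.8 to 14.6 in S87L cord, and 679 to 698 in wild-type and 631 to 650 in S87L MEF.

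Across the 11 libraries, with the mean of each tissue removed, the genes most like each member were ranked by Pearson's r among 9952 genes. All libraries share these 2 tissues and 2 genotypes, so the values only describe the pattern. Ccn2 was most like the folate enzyme Mthfd2, the skeletal muscle actin Acta1 and the cell cycle inhibitor Cdkn1a (r = 0.993, 0.991 and 0.990). Ccn3 was most like the Wnt inhibitor Sfrp2 (0.989), the surface antigen Ly6a (0.988) and Pdzd4 (0.98), and Ccn5 most like Islr, a stromal surface protein (0.986), the amino acid transporter Slc7a5 (0.974) and the scavenger receptor Stab1 (0.972). The closest genes reached 0.908 for Ccn1 (Phrf1, then Rps12-ps3 at 0.899 and Steap3 at 0.896) and 0.911 for Ccn4 (Ears2, then Lman1 at 0.909 and Cnot9 at 0.882). Among the members themselves Ccn3 and Ccn5 were most alike (r = 0.776), while Ccn1 and Ccn2 gave 0.460 and Ccn2 and Ccn3 0.02.

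The genes around the family were read from 6 lists. The lists were chosen with earlier results of these data known, so the shares called are a description. Of 106 distinct genes tested in cord 28 were called, 18 higher and 10 lower, which is 26.4% against 12.9% of all genes. In MEF 38 of 117 were called, 17 higher and 21 lower, 32.5% against 11.2% of all genes. The cord count was 16 without S87L replicate 1 and also 16 without S87L replicate 2. The MEF count was 18, 13 and 17 without wild-type replicate 1, 2 and 3. It was 4 with a block for replicate number and 58 with voom on recovered reads and no filter. Tgfb1, Tgfb2 and Tgfbi each stand in 2 of the lists and are counted once. Of these, Tgfb2 was called in cord and Tgfbi in MEF. Of the MEF genes named below, only Dcn, Igfbp3, Myl9 and Spp1 kept their call with the block for replicate number. Other settings of filter, scaling or fit also removed calls. This held for Skil and Sparcl1 in cord and for Itga5, Lrp6, Taok1 and Fhl2 in MEF.

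Among 20 tested receptors and binding partners of CCN proteins, 5 were higher and 3 lower in cord (median 0.08 against -0.02 for all genes). Of all genes 12.9% were called in cord. Dcn, a matrix proteoglycan and fibroblast marker, rose from 4.67 ± 0.216 to 11.6 ± 0.451 FPKM (SD, n = 3 each; log2 fold change 1.22, limma adjusted p = 4.56e-05). Fibronectin (Fn1) rose by 0.50, the heparan sulfate proteoglycan Sdc4 by 0.34, and the angiogenic factor Vegfa fell by 0.48. In MEF 2 of 20 were higher and 4 lower (median -0.02, against -0.01), where 11.2% of all genes were called. There Dcn fell by 0.92 and the ligand Bmp4 by 0.37, while the fibronectin receptor chain Itga5 rose by 0.22 and the Wnt coreceptor Lrp6 fell by 0.22. The calls of Itga5 and Lrp6 were lost without any 1 of the 3 wild-type MEF libraries (adjusted p up to 0.0857 and 0.0847).

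In the Hippo pathway and its TEAD factors, 2 of 15 tested genes were higher in cord and 2 of 18 in MEF, and none lower (medians 0.06 and 0.05). These counts lie near the shares of all genes called, 12.9% in cord and 11.2% in MEF. The scaffold Mob1a rose by 0.21 and the kinase Lats2, itself induced by YAP, by 0.26 in cord. Mob1a lost its call without S87L replicate 1 or 2 (adjusted p up to 0.0624) and Lats2 without any library but wild-type replicate 1 (up to 0.0768). In MEF the scaffold Amot rose by 0.24 and the kinase Taok1 by 0.33, and both lost their calls without any library but S87L replicate 2 (adjusted p up to 0.0792 and 0.127).

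YAP and TAZ targets outside the family moved both ways. In cord 4 of 20 were higher and 2 lower (median 0.06), where 12.9% of all genes were called. Tissue factor (F3) rose by 0.32 and the growth arrest gene Gadd45a by 0.31, and Tgfb2 and Fjx1 fell by 0.47 and 0.50. In MEF 5 of 23 were higher and 4 lower (median 0.06), against 11.2% of all genes called. The IGF carrier Igfbp3 was at 132, 128 and 129 FPKM in wild-type and 64.3 and 62.3 in S87L MEF (log2 fold change -1.03, SE 0.04, limma adjusted p = 1.34e-04). Crim1 rose by 0.36, and the secreted proteins Ccdc80 and Fstl1 fell by 0.28 and 0.29. Ccdc80 lost its call without wild-type replicate 2 (adjusted p = 0.0585), and Fstl1 without wild-type replicate 1 or 2 (up to 0.0623).

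SRF and MRTF genes, a list of these factors with their contractile, cytoskeletal and immediate early targets, were higher in 5 and lower in 2 of 18 cases in cord (median 0.06). Of all genes tested in cord 12.9% were called. Acta2 rose by 1.019, Tagln by 0.86 and Myl9 by 0.58, and Actb fell by 0.41. Acta2 and Tagln are also markers of vascular smooth muscle, whose list was higher in the same libraries. In MEF 2 of 20 were higher and 1 lower (median 0.02), where 11.2% of all genes were called. Myl9 fell by 0.62, and Filip1l and Fhl2 rose by 0.43 and 0.36. The call of Filip1l was lost when wild-type replicate 2 or S87L replicate 1 was left out (highest adjusted p 0.0670), and that of Fhl2 without any library but wild-type replicate 3 (up to 0.0883).

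TGF-beta genes were higher in 1 and lower in 2 of 21 cases in cord (median 0.00, rounded from below), near the 12.9% of all genes called there. The ligand Tgfb3 rose by 0.35, Tgfb2 fell by 0.47, and the SMAD corepressor Skil fell by 0.21, a call lost without any library but wild-type replicate 1 (adjusted p up to 0.142). In MEF 3 of 23 were higher and 6 lower (median 0.00, rounded from below), against 11.2% of all genes called. The latent ligand carrier Ltbp1 rose by 0.34. Ltbp2 fell by 0.39 and Tgfb3 by 0.27, and Tgfb3 lost its call without wild-type replicate 2 or 3 (adjusted p up to 0.0684).

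Other matricellular genes were higher in 1 and lower in 2 of 15 cases in cord (median -0.03), where 12.9% of all genes were called. Sparc rose by 0.21, Thbs3 fell by 0.49 and Sparcl1 fell by 0.14. The call of Thbs3 was lost without wild-type replicate 3 or S87L replicate 1 or 2 (highest adjusted p 0.0657). That of Sparcl1 was lost without any library but replicate 1 of the wild-type and replicate 3 of the S87L group (up to 0.107). Sparcl1 also lost it with quantile normalization, where its difference was 0. The same held with median ratio scaling (limma adjusted p = 0.0781) and with 1 fit of all libraries (0.0696). In MEF 4 of 16 were higher and 6 lower (median -0.05), against 11.2% of all genes called. Osteopontin (Spp1) was at 166, 167 and 172 FPKM in wild-type and 335 and 340 in S87L MEF, both far above (log2 fold change 1.003, SE 0.04, limma adjusted p = 1.34e-04). Thbs4 fell by 0.57, Sparcl1 by 0.65 and the fibulin Fbln1 by 0.32.

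**Figure D5:**
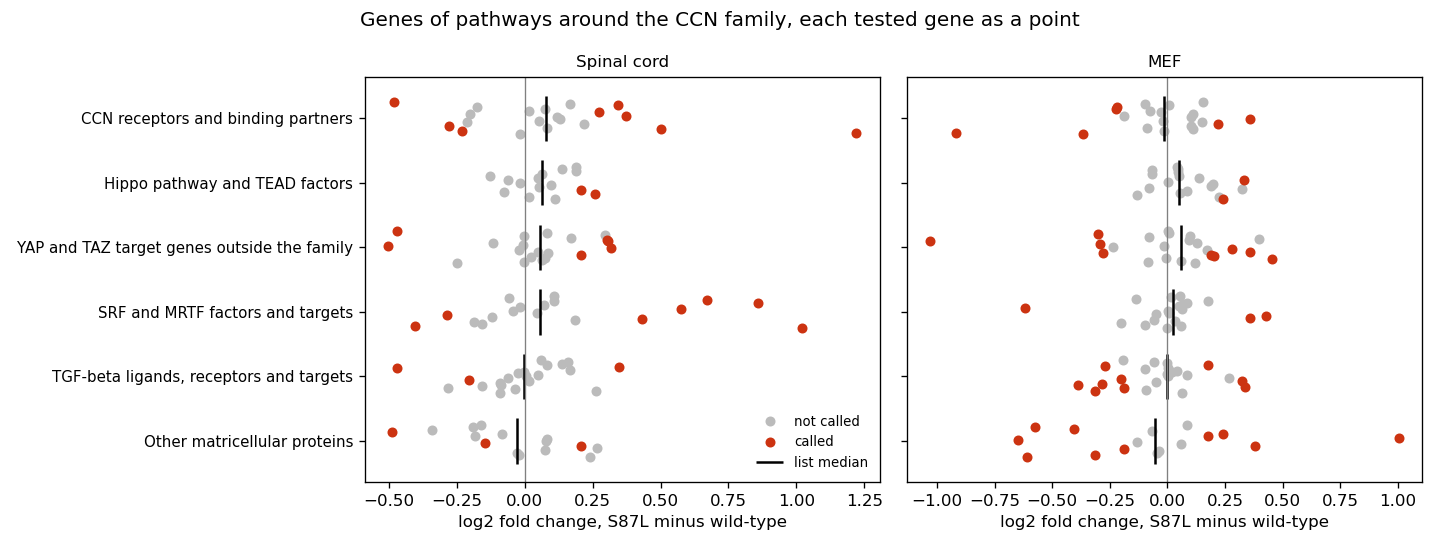
Log2 fold change, S87L minus wild-type, of every tested gene in 6 lists around the CCN family, in spinal cord (left) and MEF (right). Red points were called by limma, grey points were not, and the black line is the list median. The medians lie between -0.05 and 0.08 in both tissues.

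Ccn6 (Wisp3), the remaining gene of the family, is not among the 5. It had 8 reads over the wild-type and 5 over the S87L cord libraries. It was listed at 0 in all 5 MEF libraries, where 3 reads, the limit that a count of 0 allows, would give 0.147 to 0.184 FPKM.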

How the data were processed

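The authors deposited 1 table of FPKM values, with 55487 Ensembl genes as rows and 11 libraries as columns. The submitters' processing notes name build GRCm38 and list HTSeq 0.11.3, Picard 2.25.5, HISAT2 2.2.1 and Trimmomatic 0.39. The sources used here do not give what each tool did, the annotation release or the strand setting. TRIzol was used for total RNA and a NEBNext Ultra II Directional kit for the libraries, per the labels' protocols. GENCODE M21 gave symbols for 55227 identifiers, not for 260.

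Reads were recovered by dividing each FPKM value by the value of 1 read, and 98.51% to 98.6% of values above 0 came out within 0.05 of a whole number. Library pairs of a group differed beyond counting noise (chi-square per degree of freedom 1.26 to 4.67), so each counted as 1 replicate. Intervals of reads were not used, and low reads limit the precision.

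Limma 3.58.1 in R 4.3.3 (trend, robust) was fitted on log2(FPKM + 0.5), keeping genes whose mean FPKM reached 0.5. Fold changes on this scale understate those of low genes. All limma adjusted p-values are Benjamini-Hochberg values over all genes tested, and SE is the moderated standard error. The fits were tested on simulated data. Members and lists were chosen with earlier results of these data known. Named genes were the members, Ccn6, Morc2a, up to 4 called genes of smallest p per pathway list and tissue (or, with none called, that of largest change), at most 2 markers of highest level per list, and the 3 most alike genes per member, leaving out clone and predicted names, whose mean FPKM reached 1 in both tissues. Yap1, Tead1, Tgfb1, Tgfbi, Gm15270 and the markers at 0 were named outside this rule, with their values seen. So were genes named for how they passed the filter or for the calls of their list. Alternatives were other pseudocounts, filters and scalings, library weights, a replicate block, 1 fit of all libraries and each library left out. Voom on recovered reads was added after seeing the data. Some genes that this rule names are not reported here.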

Additional observations from a re-analysis of the deposited data

Results flagged for a closer look

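The fitted genotype effect in MEF minus that in cord stood out for 3 members. It is made of the genotype values that chose the family, so it is a description and no independent test. It was -0.59 on the log2 scale for Ccn2, which was higher in all 3 S87L cord libraries and, by a difference that was not called, in both S87L MEF libraries. It was -1.07 for Ccn3, which was lower in both S87L MEF libraries, with overlapping groups in cord. It was -0.73 for Ccn5, which was lower in both S87L MEF libraries and higher in all 3 S87L cord libraries, there on 28 and 58 reads per group. Ccn5 passed the filter through MEF, and its value was not called with voom on recovered reads and no filter (-1.12).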

How the results depend on the processing

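The count of called members was 1 in cord, 5 between wild-type tissues (Ccn4 and Ccn5 having passed the filter through MEF alone) and 3 for the interaction, and leaving out 1 library in turn gave 1 to 1, 5 to 5 and 3 to 3. In MEF it was 2, with 2 to 2 when 1 library was left out and 1 with the replicate block, where Ccn5 was not called. Listed pathway genes called were 28 in cord and 38 in MEF, with 16 to 28 and 13 to 44 when 1 library was left out. In MEF the count was 4 with the replicate block and 58 with voom on recovered reads and no filter. Over all genes, calls were 2016 in cord, 3098 with array weights, 3416 with voom and no filter, and 1663 with the block. In MEF they were 1547, with 788 without filter, 2771 with voom, 2830 with voom and no filter, and 182 with the block. With 1 library left out they ran from 838 to 1637 in cord, from 565 to 1753 in MEF and from 1373 to 2261 for the interaction (2075 with all libraries). Whether the replicate numbers pair the libraries was not settled. Same-numbered deviations correlated at 0.15, -0.05 and 0.11 in cord and at -0.07 and -0.03 in MEF. In cord, wild-type libraries 1 and 3 were closest to their own number, and wild-type library 2 to S87L library 3 (0.09). With 2 S87L MEF libraries the deviations of 1 mirror those of the other, so the MEF values cannot decide it. The interaction of Ccn1 (-0.02) ran from -0.0796 to 0.0624 when 1 library was left out, changing sign without wild-type cord replicate 3, S87L cord replicate 1 and S87L MEF replicate 1. That of Ccn4 (-0.01) ran from -0.0606 to 0.0472, changing sign without wild-type cord replicate 3, S87L cord replicate 3 and S87L MEF replicate 2, and was 0.0604 with pseudocount 0.1, 0.106 with voom and 0.109 with voom and no filter. Neither was called in any setting, and the cause was not tested. Of the named pathway genes, 14 of 19 in cord and 4 of 21 in MEF (Dcn, Igfbp3, Myl9 and Spp1) kept their call in every setting, and the other 17 in MEF lost it with the block. With an S87L MEF library left out, the remaining one is assumed to vary like the wild-type libraries.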
